A study of Caenorhabditis elegans with 2 samples.

Results

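The regions described here are the places on the X chromosome of Caenorhabditis elegans where tagged MADF-9 was pulled down away from tRNA genes. They were chosen by position: a peak of the set called between replicates counted when it lay on X and its summit, the deposited point of highest pile-up, was more than 250 bp from every annotated tRNA gene. There were 237 such peaks, out of 386 peaks on X and 1637 in all. The other 149 X peaks lay near tRNA genes, and 1095 autosomal peaks met the same distance rule. Chromatin immunoprecipitation was done with an antibody against GFP on whole L4 larvae, 48 hours after starved L1 larvae were released, in a single group of 2 biological replicates. Both replicates were strain RW12324, whose madf-9 gene on chromosome IV carries TY1, EGFP and 3xFLAG tags inserted by CRISPR. Whole animals were used, so the cells that gave a peak are not known, and no untagged or input library was analysed here, so that pull-down at open or strongly transcribed DNA cannot be told apart from binding by MADF-9.

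MADF domains are DNA-binding folds related to the Myb domain, and they are found in proteins that act on transcription. The worm X chromosome is special in another way: hermaphrodites have a pair of X chromosomes and males a single one, and the dosage compensation complex, a condensin-like machine, lowers X expression in hermaphrodites. That complex is loaded at recruitment elements on X known as rex sites, and a GC-rich motif around the letters CGCAGGG is known from those sites. Peaks that many factors share in worm chromatin maps are also common, and such shared regions were not marked in the sources used here.

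Of the 20 strongest X peaks, 10 carried letters like that motif, and the sequences of most of these are shown first. No list of rex sites was used here, so whether these peaks are such sites was not tested. The 7-letter core GCGCAGG was picked from among the leading words at the centres of the 237 peaks, of which AGACGCAG was the first. The 12-letter consensus TCGCGCAGGGAA was then read as the commonest letter at each place around 12 copies of the core in the 112 peaks of the left side of X. Below, capitals mark each 12-letter stretch that differs from the consensus in at most 2 places, on either strand (a stretch on the minus strand appears as its reverse complement), and in peak 14 also a copy of the word AGACGCAG, read on the minus strand. Peaks are numbered by signal, 1 being the strongest. Peak 1 is shown over its whole deposited interval and the others over 50 bp on each side of the summit. Peak 13, which is among the 20 strongest and held a stretch in its interval, is not shown. Peak 21 also held one but is outside the 20 strongest. Peaks 8 and 10 are strong peaks with no such stretch.
Peak 1 at chrX:11094036-11094328, plus strand: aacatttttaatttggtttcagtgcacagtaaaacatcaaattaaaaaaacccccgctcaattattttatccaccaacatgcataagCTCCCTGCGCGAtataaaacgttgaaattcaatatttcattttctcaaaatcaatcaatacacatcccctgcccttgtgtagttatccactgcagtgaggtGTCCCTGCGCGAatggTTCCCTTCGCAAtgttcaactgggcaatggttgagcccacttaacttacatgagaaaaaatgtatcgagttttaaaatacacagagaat
Peak 2 at chrX:4209207-4209307, plus strand: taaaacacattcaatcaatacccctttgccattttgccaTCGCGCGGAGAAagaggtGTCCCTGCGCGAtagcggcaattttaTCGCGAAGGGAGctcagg
Peak 3 at chrX:14525828-14525928, plus strand: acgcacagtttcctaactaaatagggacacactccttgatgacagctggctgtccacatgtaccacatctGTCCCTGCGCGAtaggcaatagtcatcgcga
Peak 4 at chrX:6296513-6296613, plus strand: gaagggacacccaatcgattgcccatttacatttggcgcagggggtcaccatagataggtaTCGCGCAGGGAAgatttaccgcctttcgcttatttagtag
Peak 5 at chrX:8036351-8036451, plus strand: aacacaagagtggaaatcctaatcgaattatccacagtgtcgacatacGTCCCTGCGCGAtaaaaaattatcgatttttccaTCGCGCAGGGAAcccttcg
Peak 6 at chrX:16682046-16682146, plus strand: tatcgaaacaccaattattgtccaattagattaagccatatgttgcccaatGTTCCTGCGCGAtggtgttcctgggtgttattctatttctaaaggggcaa
Peak 11 at chrX:2997044-2997144, plus strand: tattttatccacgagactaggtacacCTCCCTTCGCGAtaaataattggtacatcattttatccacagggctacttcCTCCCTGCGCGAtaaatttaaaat
Peak 12 at chrX:1627068-1627168, plus strand: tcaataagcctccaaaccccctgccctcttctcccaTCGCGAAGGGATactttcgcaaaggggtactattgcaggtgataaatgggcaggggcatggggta
Peak 14 at chrX:806644-806744, plus strand: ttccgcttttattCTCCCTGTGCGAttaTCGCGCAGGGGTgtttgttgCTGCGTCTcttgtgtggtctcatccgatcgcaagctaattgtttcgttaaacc
Peak 21 at chrX:1344986-1345086, plus strand: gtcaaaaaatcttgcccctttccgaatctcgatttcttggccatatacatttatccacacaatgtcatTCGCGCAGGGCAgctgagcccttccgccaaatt
Peak 8 at chrX:13700796-13700896, plus strand: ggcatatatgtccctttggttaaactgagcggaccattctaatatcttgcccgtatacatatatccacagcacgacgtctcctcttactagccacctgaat
Peak 10 at chrX:15841242-15841342, plus strand: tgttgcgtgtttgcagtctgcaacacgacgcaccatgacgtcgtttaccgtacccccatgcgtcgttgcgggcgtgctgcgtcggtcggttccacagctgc

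Read on the strand of the consensus, the stretches in peaks 1, 2, 3 and 5 included the same 12 letters, TCGCGCAGGGAC, once in each. Peaks 4 and 5 held the consensus itself, and peaks 1 and 11 held TCGCGCAGGGAG, which differs from it in the last letter. Peak 1 held 3 stretches, peak 2 also 3, and peaks 3, 5 and 11 held 2 each within their deposited intervals. In peak 1 none lay wholly within 50 bp of the summit: their centres were at -53.5, 47.5 and 63.5 bp.

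The peaks with such a stretch sat mostly at the top of the signal range. The signal is the peak's own strength as the authors deposited it. Its scale is not known, so it serves only to rank and describe peaks within the list. Of the 20 strongest X peaks, 10 held a site (a stretch with at most 2 differences) inside their interval, which is 50% with a 95% Wilson interval of 29.9% to 70.1%. Of the 20 strongest autosomal peaks away from tRNA genes, 0 held one, which allows a share of up to 16.1% on the same interval. Over all X peaks the count was 19 of 237, or 8.02% (5.19% to 12.2%), against 15 of 1095 autosomal peaks, or 1.37% (0.832% to 2.25%). These intervals cover counting error only, peaks are not replicates, and the letters were chosen on X peaks, so no test was run on the difference.

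The 19 X peaks with a site had a median signal of 256.9, with a range of 63.7 to 483, and the 218 without had a median of 83.0, with a range of 16.1 to 309.8. The ranges overlap widely: 11 of the 19 lay at 217.7 or above, and the other 8 between 63.7 and 120.2. Each replicate's own thresholded set held a peak at 13 of the 19, or 68.4%, and at 68 of the 218, or 31.2%. The GC content within 50 bp of the summit was 47.5% at the median with a site and 52.5% without, so the peaks with a site were not the more GC-rich ones. The left side of X held 12 of the 19 and the right side 7. The consensus letters came from left-side peaks, so the right side is the side that did not set them, although the core was chosen with all 237 peaks in view.

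**Figure D1:**
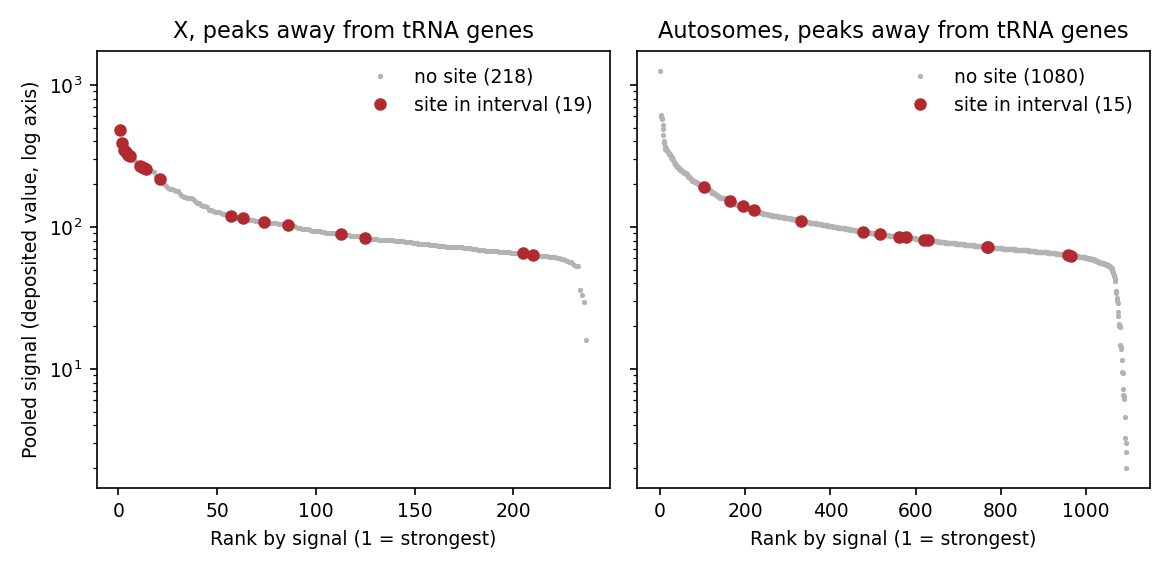
Pooled signal (log axis) against rank by signal for the 237 X peaks (left) and the 1095 autosomal peaks (right) away from tRNA genes. Red points are peaks with a site of at most 2 differences from the consensus inside the interval, 19 on X and 15 on the autosomes. On X 10 of the 20 strongest are red, and on the autosomes 0 of the 20 strongest.

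Within 50 bp of the summit, a site was found at 13 X peaks, or 5.49% (3.23% to 9.16%). The same search found one in 0.224% of all 101 bp windows that tile X, in 0.422% of windows 150 to 250 bp to the side of the X summits, and at 0.822% of autosomal peaks. Because the core and consensus were chosen at X centres, these differences follow in part from that choice and support nothing by themselves. By side, the count was 8 of 112 peaks on the left, or 7.14% (3.66% to 13.4%), and 5 of 125 on the right, or 4% (1.72% to 9.02%). With at most 1 difference, 7 X peaks, or 2.95%, and 2 autosomal peaks, or 0.183%, held a site at the summit. Every one of those 7 was among the 59 strongest.

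Sites with at most 1 difference were themselves denser on X, but those with at most 2 were not. With at most 2, 0.224% of the windows tiling X and 0.228% of those tiling the autosomes held a site. With at most 1 difference there were 32 sites on X, or 1.81 per Mb, and 80 on the autosomes, or 0.969 per Mb. The cover and signal that follow are for these sites. On X 10 of the 32 lay inside a peak of the set, or 31.2%, and on the autosomes 2 of the 80, or 2.50%. Among all ranked regions, a much longer list that includes weak ones, 14 of the 32 X sites and 17 of the 80 autosomal sites were covered. The median signal of the ranked regions over them was 293.9 on X and 31.4 on the autosomes. So most copies of these letters lay outside the set on both, and the covered ones on X lay under strong peaks. The letters were read off X peaks, so the higher cover and signal on X follow in part from that choice.

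The distance of sites from summits is given as a description, since the core was picked from words frequent at the centres of these same peaks and rare to the side. Of 37 sites with at most 2 differences that lay within 250 bp of an X summit, 20 were within 50 bp of it and 2 were more than 150 bp away. For the word AGACGCAG, which leads the words at the X centres with 16 peaks and 1 with it to the side and is also among the leading words at autosomal promoter peaks, 18 of 38 copies were within 50 bp and 1 beyond 150 bp.

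**Figure D2:**
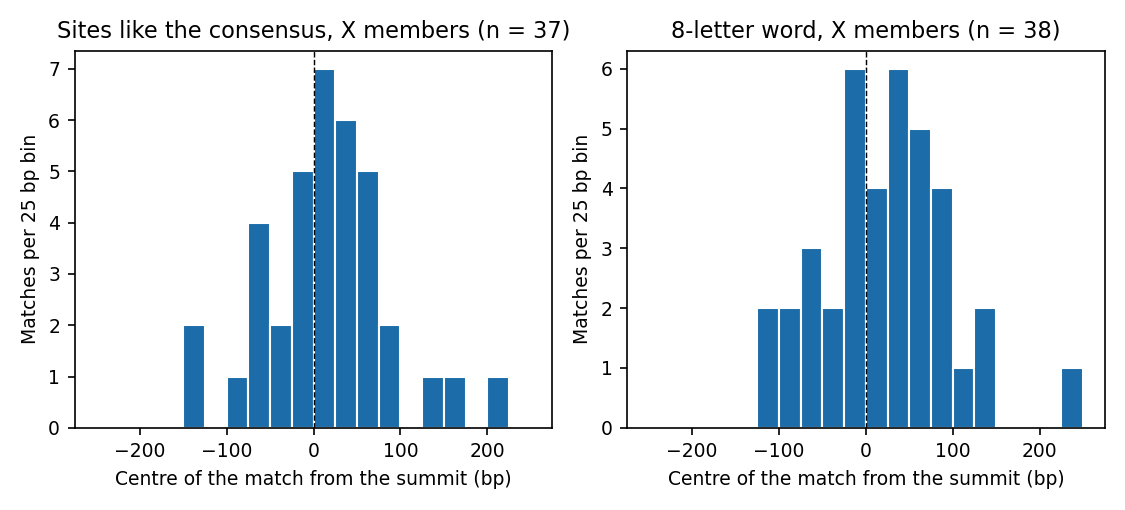
Distance in bp from the summit to the centre of each match within 250 bp of the 237 X summits, in 25 bp bins. The left panel counts 37 sites like the consensus and the right panel 38 copies of the word AGACGCAG, and both pile up near the summit, which the choice of these words at the centres fixes in part.

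Other words were searched in the same way, on both strands. AGACGCAG, the word that stood highest above the side windows at the X centres, was within 50 bp of 16 X summits, or 6.75% (4.20% to 10.7%). That is more X summits than the 13 with a site. AGACGCAG was at 9.41% (7.82% to 11.3%) of autosomal summits. It was in 0.280% of windows tiling X and 0.572% of those tiling the autosomes, and in 0.211% and 1.23% of the windows to the side. Its strongest bearer was peak 14, followed by the promoter peak of hsp-3, which encodes an Hsp70 chaperone of the endoplasmic reticulum. The word CTGAGCTA was at 1 X peak, the promoter peak of F11C7.6 with a signal of 57.1, or 0.422%, while 22.1% of the X peaks near tRNA genes had it. GTTCGANNC, the core of the B box that RNA polymerase III genes carry inside them, was at 3 peaks, or 1.27%, against 40.9% of the X peaks near tRNA genes. Its strongest bearer was the promoter peak of C18B12.4, with a signal of 126.9. GAGAGAGA was at 8 peaks, or 3.38%, led by the promoter peak of eef-1A.2, which encodes a translation elongation factor, with a signal of 116.2. That word was no more frequent at the X centres than in the windows to the side, at 4.22%. It was at 5.39% of autosomal peaks and in 0.553% of windows tiling X.

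The wording of the motif mattered to its count. CGCAGGGAG, a form taken from the known motif of recruitment sites, was at 2 X peaks, or 0.844%, with peak 11 the stronger, and at 0 of 1095 autosomal peaks. GCGCAGGG, read off these peaks, was at 11 X peaks, or 4.64%, at 1 autosomal peak, or 0.0913%, and in 0.0388% of windows tiling X. Peak 2 was its strongest bearer. The centres of X peaks were rich in G and C in general, with a median of 51.5% within 50 bp of the summit, 36.6% in the windows to the side and 35.2% over the whole chromosome. Autosomal centres had a median of 49.5%.

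In genomic place, the X peaks lay more often between genes than the autosomal ones. A promoter was taken as 1000 bp before to 200 bp after the start of a protein-coding transcript, and the other classes were exon, intron, noncoding gene and intergenic sequence, in that order of precedence. On X 72 of 237 summits were intergenic, or 30.4% (24.9% to 36.5%), against 202 of 1095 on the autosomes, or 18.4% (16.3% to 20.9%). Promoters held 108, or 45.6% (39.4% to 51.9%), against 55.4% (52.5% to 58.4%). The rest on X were 33 introns, 16 noncoding genes and 8 exons, or 13.9%, 6.75% and 3.38%, against 15.1%, 3.65% and 7.397% on the autosomes. How much of the sequence of X and of the autosomes falls in each class was not measured. These shares therefore stand without a baseline, and whether the peaks differ from their chromosome was not tested.

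The gap was widest among strong peaks. Of the 59 X peaks in the upper 25% by signal, 26 were intergenic, or 44.1% (32.2% to 56.7%), against 39 of 273 on the autosomes, or 14.3% (10.6% to 18.9%). Among the rest it was 46 of 178, or 25.8% (19.97% to 32.7%), and 19.8% (17.2% to 22.7%). Of the 20 strongest X peaks 13 were intergenic, and of the 20 strongest autosomal peaks 5. Promoters took 42.4% (30.6% to 55.1%) of the strongest 59 on X and 63.4% (57.5% to 68.9%) of the strongest 273 on the autosomes. Most intergenic X peaks had no site: 10 of the 72 held one in their interval, and 62 did not.

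**Figure D3:**
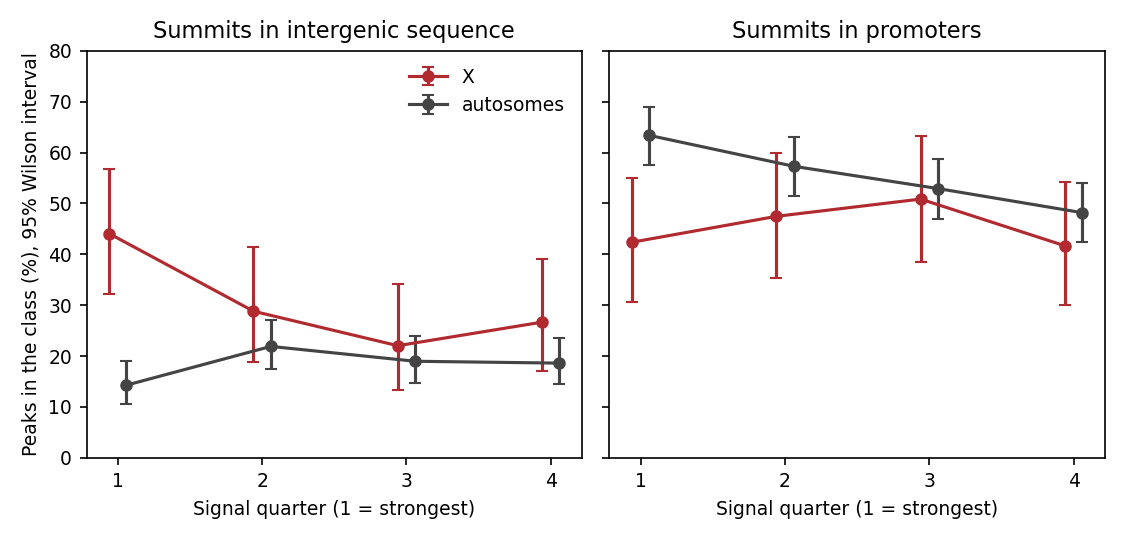
Share of peaks whose summit is intergenic (left) or in a promoter (right), in percent, in 4 equal bins of signal with 1 the strongest, for X (red) and the autosomes (grey). Bars are 95% Wilson intervals, and in the strongest bin the intergenic shares are 44.1% on X and 14.3% on the autosomes.

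Peak 1 was intergenic and stood above all other X peaks. Its pooled signal was 483, with 235.4 in replicate 1 and 239.1 in replicate 2, and it ranked 8 in the whole set. It spans chrX:11094036-11094328 on ce11, 3313 bp from the end of W04G3.11 and 2770 bp from W02H3.3, which run towards each other. Peak 2 had a pooled signal of 386, with 206 in replicate 1 and 176 in replicate 2. It lies at chrX:4209182-4209381, between F20B6.9 and hpk-1, the gene of a homeodomain-interacting protein kinase. Peak 3, with 349.9 pooled, 162 and 172, was the strongest in a promoter. Its summit lay at -697 bp from the start of nspc-17 (WBGene00008359, chrX:14524754-14525181, minus strand), one of a family of nematode-specific peptide genes.

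Peak 4 had 338.9 pooled, 174 and 154 in the replicates, and lay in an intron of mom-1, which encodes a Porcupine-like enzyme that modifies Wnt proteins. Peak 5 had 320.8 pooled, 151 and 177, and lay between C34D10.1 and xol-1, 4912 bp upstream of the start of xol-1 (WBGene00006962, chrX:8041313-8044409, plus strand). The gene xol-1 is the switch that reads the X dose early in sex determination, and it is kept low in hermaphrodites. Peak 5 was also the member nearest a tRNA gene, at 284 bp. The next members by that distance were an intergenic peak at 420 bp with a signal of 104 and one at 601 bp with 69.4. Just inside the limit lay X peaks at 166, 115 and 70 bp, with signals of 26.99, 101 and 91.0. Only 4 of the 237 were within 1000 bp of a tRNA gene, and the median distance was 39349 bp.

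The remaining strong peaks were of mixed kinds. Peaks 6, 7, 8, 9 and 12 were intergenic, with pooled signals of 317, 309.8, 296, 285 and 265. Peak 10 lay at -280 bp from the start of serp-1.1 with 277 pooled, and peak 11 in an intron of Y41G9A.17 with 267. Peak 13 was the strongest in an exon, in pks-1, a polyketide synthase gene, with 259 pooled, 129 and 128 in the replicates. Peaks 14 and 17 to 20 were again intergenic, with 222 to 257.

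Peaks 15 and 16 lay at -455 bp from the start of epn-1 and at -309 bp from that of puf-9, with pooled signals of 249 and 248. The first gene encodes epsin, an adaptor of clathrin-mediated endocytosis, and the second a Pumilio-family RNA-binding protein. In the replicates epn-1 had 142 and 105, and puf-9 had 147 and 85.4. All 20 were in both replicates' own thresholded sets, and 15 of the 20 had the higher value in replicate 1. The log2 ratio of replicate 1 to replicate 2 ran from -0.23 to 0.78 among them. Of the 13 intergenic ones, 6 lay between genes that run towards each other, 7 between genes in the same direction and 0 between genes that run apart.

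That arrangement went with signal over all intergenic X peaks. The 19 between convergent genes had a median of 165 (95% interval of the median, 80.9 to 244), the 39 between tandem genes 99.8 (82.8 to 109.8), and the 14 between divergent genes 78.8 (66.6 to 112). On the autosomes the medians were 94.2 (75.2 to 113), 85.1 (79.7 to 89.9) and 82.9 (76.0 to 97.9). The intervals on X overlap, and no test was run. Intergenic X summits lay a median of 3059 bp from the nearest protein-coding start, with a range of 859 to 9261 bp, and 36 of the 72 were upstream of that start. On the autosomes the median was 2206 bp, and 130 of 202 were upstream.

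Promoter peaks on X marked 114 of 2731 protein-coding genes of the chromosome, or 4.17%, and away from tRNA genes the autosomal peaks marked 755 of 17242, or 4.38%. A gene with a summit in its promoter window is called bound here. X and the autosomes were close in that share, and also in the number of peaks per Mb, with 13.4 on X and 13.3 on the autosomes. Of ranked regions away from tRNA genes, 1.5% were in the set on X and 1.55% on the autosomes.

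The strongest bound genes after those named were ins-39 (WBGene00017668, chrX:1343758-1344421, minus strand), which encodes an insulin-like peptide, with 218 pooled and 109 in each replicate, and hsp-3, with 217 pooled, 101 and 114. They were followed by ain-1, a GW182-type partner of the microRNA machinery, with 201 pooled, 121 and 81.0, spc-1, which encodes alpha spectrin, with 185 pooled, 107 and 66.6, and kin-29, a salt-inducible kinase of sensory neurons, with 184 pooled, 114 and 70.5. The ins-39 peak held a site, and the other four did not. A signal above 100 was reached at 42 of the 114 genes.

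Summits on X lay somewhat farther upstream of the start than on the autosomes. The median was -281 bp on X, with the middle 50% from -444 to -150 bp, and -223 bp on the autosomes, from -429 to -87 bp. More than 250 bp upstream lay 60 of 108, or 55.6%, and 271 of 607, or 44.6%. At or after the start lay 6 of the 108 X summits and 63 of the 607 autosomal ones. Promoters of more than 1 gene were hit by 9 X peaks, or 8.33%, and by 192 autosomal ones, or 31.6%. For such peaks the nearest start was used, which can shorten the distances where sharing is common. Whether sharing accounts for the shift was not tested.

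**Figure D4:**
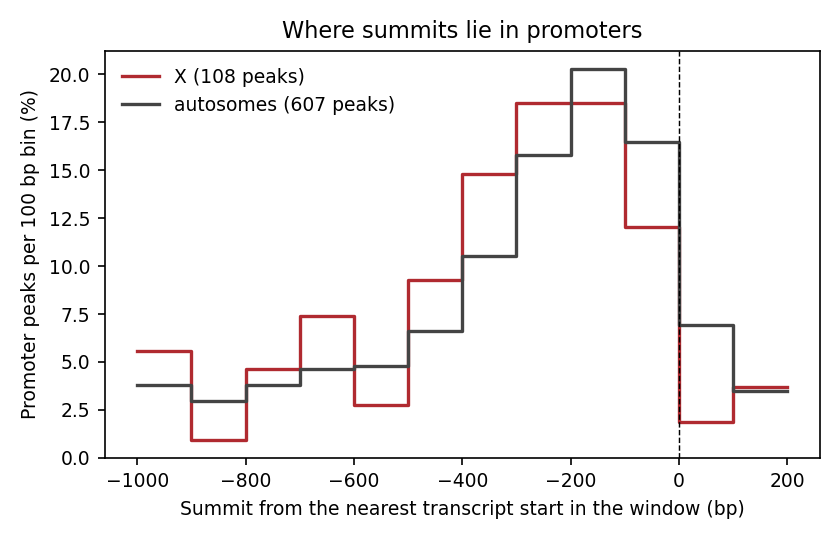
Position of summits relative to the nearest protein-coding transcript start whose window holds them, in bp, as percent of promoter peaks per 100 bp bin, for 108 X peaks (red) and 607 autosomal peaks (grey). The X line is shifted upstream, with a median of -281 bp against -223 bp.

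The strongest of the shared promoters was that of rab-14, a small GTPase of endosomes, and nipi-3, a Tribbles-type pseudokinase, with 129 pooled, 66.2 and 52.8. Next were glit-1, a neuroligin-like gene, with dnj-14, a DnaJ-type chaperone gene, at 116 pooled, 64.1 and 59.2, and trap-2, a subunit of the translocon-associated complex, with ile-2 at 116 pooled, 65.6 and 47.1. A second peak at nipi-3 alone, at -282 bp from its start, was stronger, with 158.6 pooled, 104 and 55.2.

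Gene lists, set as classes of symbols, had few bound members on X, and their counts read as follows against the 4.17% of all X genes. Genes that set the sex and count X chromosomes had 2 of 7 bound. These were sdc-2 (WBGene00004746, chrX:11522707-11533450, plus strand), the factor that brings the dosage compensation complex to X in hermaphrodites, with 71.9 pooled, 38.2 and 43.0, and sdc-1, a zinc finger protein of the same complex, with 64.1 pooled, 41.3 and 28.8. Both lie in the lower part of the signal range. Neither peak held a site.

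Nuclear hormone receptors had 2 of 23 bound, nhr-1 with 104 pooled, 53.2 and 45.8, and nhr-48 with 77.2 pooled, 45.2 and 32.2. Single genes were bound in 7 other lists. Among neuropeptides and insulins it was ins-39, 1 of 35, and among ribosomal protein genes rpl-11.2, 1 of 2, with 147.8 pooled, 81.5 and 65.0. Among the 3 small GTPase genes it was rab-14, among 3 heterochronic genes lin-14, the larval timing factor that the lin-4 microRNA represses, with 74.7 pooled, 38.3 and 37.9.

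The other lists with a bound gene were chromatin, vacuolar ATPase and vitellogenins. In these, lin-15B, a synMuv repressor of germline genes, had 80.6 pooled, 32.5 and 44.3 and was 1 of 14. The proton pump subunit gene vha-12 had 78.4 pooled, 42.3 and 41.7 and was 1 of 3, and the yolk protein gene vit-2 had 72.1 pooled, 33.8 and 46.3 and was 1 of 5. The vit-2 summit lay 175 bp after the start.

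Lists with 0 bound on X included 80 neuronal receptor and channel genes, 47 genes with symbols of some families of DNA-binding factors, 33 chemoreceptor genes, 27 cuticle collagens, 11 of detoxification and immunity, 10 of muscle, 8 of ubiquitin, 4 innexins and 3 genes with symbols of oxidative phosphorylation, and the list of mitochondrial ribosomal proteins had no gene on X. The lists hold only certain symbols, and genes of the same kind outside them were bound. Named after their values were seen, these included zfp-3, mdl-1, cebp-1, atf-6, mxl-3 and nfya-1, genes of DNA-binding factors with pooled signals of 138.9, 109.5, 90.7, 76.0, 68.2 and 61.6, and asb-2, an ATP synthase subunit gene, with 72.5. The neuronal list was also at 0 of 191 on the autosomes, and the DNA-binding list at 6 of 131.

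Within genes, the strongest intron peaks after peaks 4 and 11 lay in F09A5.3, with 179 pooled, 95.8 and 80.5. After pks-1, the exon peaks were weaker: col-19, an adult cuticle collagen gene, had 86.4 pooled, 43.0 and 41.7, and tps-1, a trehalose phosphate synthase gene, had 81.8 pooled, 48.8 and 36.0. In noncoding genes the top 3 were C03A3.7 with 160.4 pooled, 94.3 and 68.3, C30E1.9 with 128 pooled, 89.6 and 45.7, and R03E9.10 with 112 pooled, 58.1 and 53.6.

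Few small RNA genes had an X peak nearby, and X has few of some kinds, with 33 snoRNA, 3 snRNA and 74 microRNA genes annotated. Within 250 bp of a summit there was 1 snoRNA gene, C53B7.8, 0.422% of peaks (0.0745% to 2.35%), against 6.30% (5.01% to 7.90%) of autosomal peaks. That peak lay 28 bp from the gene and had 183 pooled, 77.8 and 99.9. The snRNA gene M163.13 had a summit 37 bp away with 108 pooled, 53.6 and 58.5, and linc-78 one 90 bp away, the rpl-11.2 peak. The microRNA gene cel-mir-56 had one 204 bp away with 66.6 pooled and 53.8 in replicate 2, and no ranked region in replicate 1. No antisense RNA gene and no piRNA gene was near a summit. Genes of the annotation class ncRNA, a mixed class with 2520 genes on X, were near 57 peaks, or 24.1% (19.1% to 29.9%), against 15.6% (13.6% to 17.9%) on the autosomes. The numbers of ncRNA, snoRNA and other small RNA genes on the autosomes were not counted here. The shares in this paragraph are therefore not set against how dense each class is.

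Along X the peaks were spread out. Each of the 17 full Mb held 8 to 20 of them, with a median of 12, and the median gap was 44427 bp. Between 25% and 75% of the chromosome's length lay 113, or 47.7% (41.4% to 54.02%), where 52.9% of its protein-coding genes lie. Of the strongest 59, 23 lay there. Gaps under 1 kb numbered 13. The closest pair was 212 bp apart near grk-1, a kinase gene of receptor signalling, with 60.1 and 16.1 pooled. Both peaks had the same values in the replicates, 36.5 and 35.4, so these do not separate the pair. The next pairs were 402 bp apart near bet-2, a bromodomain gene, with 102 and 89.9, and 410 bp apart in C30E1.9, with 69.6 and 62.2. The C30E1.9 locus held 4 peaks in a row, with 128, 69.6, 62.2 and 109 pooled, and only the last held a site.

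The replicates' values rose together over the X peaks, and strong peaks were more often in both replicates' own sets. Pooled signal had a median of 86.5 (81.3 to 92.1) on X and 86.2 (84.1 to 88.7) on the autosomes. In replicate 1 the values ran from 28.5 to 235 with a median of 48.8, and in replicate 2 from 25.6 to 239 with a median of 40.1. The Spearman correlation of the replicates was 0.62 over 232 peaks with a value in each, and 0.61 on the autosomes. It is a description across peaks, which share both libraries. By class it was 0.76 for intergenic, 0.59 for promoter and 0.44 for intron peaks on X. On the autosomes the order differed, with 0.47 for intergenic, 0.66 for promoter and 0.63 for intron peaks.

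Replicate 1 had the higher value at 175 of 232, with a median log2 ratio of 0.24 (0.19 to 0.31), and 0.27 (0.24 to 0.30) on the autosomes, so the tilt was shared. Both replicates' own sets held a peak at 81 of the 237, or 34.2% (28.4% to 40.4%), against 35.6% in the whole set, and neither did at 91, or 38.4% (32.4% to 44.7%). Of the strongest 59, 55 were in both and 0 in neither. Of the weakest 59, 1 was in both and 54 in neither. By class, 48.6% of intergenic, 29.6% of promoter and 21.2% of intron peaks were in both. On the autosomes these shares were 27.7%, 36.1% and 35.2%.

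**Figure D5:**
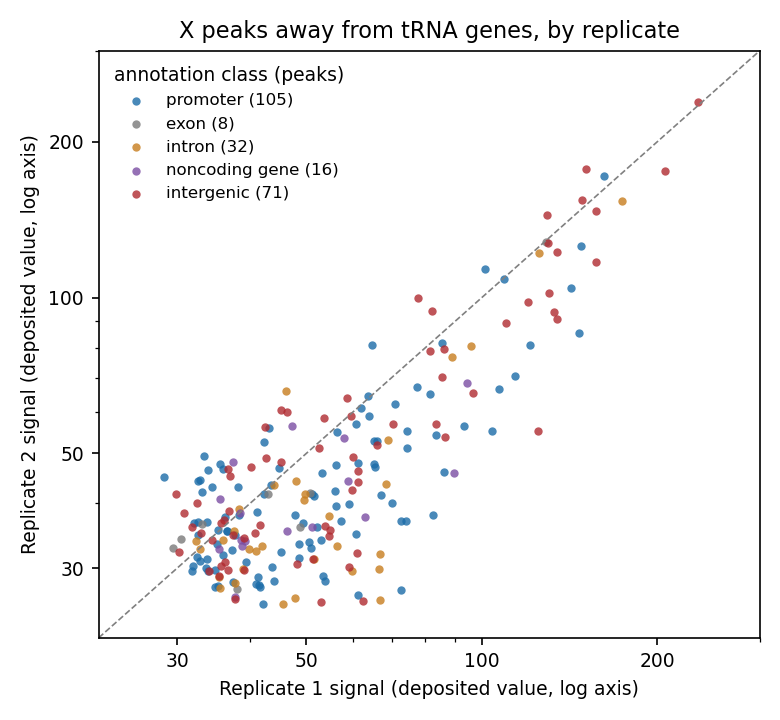
Signal in replicate 1 against replicate 2 (both log axes) for the 232 X peaks with a value in each, coloured by annotation class, with the line of equal values dashed. Most points fall below the line, with 175 of 232 higher in replicate 1, and the points spread more widely around it at low signal.

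The widest gaps between replicates were at the promoter of F46H5.2, with 72.5 and 27.3, an intron of C30G4.4, with 66.8 and 26.1, an intergenic peak 3099 bp upstream of sma-9, a Schnurri-type gene of TGF-beta signalling, with 62.5 and 25.9, and the promoter of F22F1.3, with 61.2 and 26.7. In all 4 replicate 1 was higher. At 5 peaks 1 replicate had no ranked region. These included the promoters of mrp-5, a heme exporter gene, with 74.4 pooled, and mbk-1, a Minibrain kinase gene, with 61.6.

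Repeated sequence touched few peaks. At 217 of the 237, no 36-base word within 50 bp of the summit occurred again in the genome, and at 1, peak 34 near fbxa-190, every word did. Of the strongest 59, 5 had some repeated word.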

How the data were processed

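Chromatin immunoprecipitation sequencing of 2 biological replicates was used as deposited peak lists on ce11, per the labels. No aligner or peak caller is named: neither is given in the sources used here. With no read counts, depth is unknown. The authors deposited a score per peak, scaled from the irreproducible discovery rate so that a higher score means a lower rate and at least 830 in the set used, and a signal per peak, pooled over replicates, whose scale is not stated. Each replicate's signal at a peak was read from whichever of its ranked regions overlapped the peak most, by 1 bp or more. Gene models came from Ensembl release 115 and sequence from RefSeq, both of the assembly WBcel235, which is ce11. Coordinates are 1-based.

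Shares carry 95% Wilson intervals and medians carry order-statistic intervals, both for counting error only. No test was run, since there is 1 group and peaks are not replicates. The search for sites was checked on made-up sequence of A and T only, with a stretch other than the consensus placed in it. The search for words was checked with GTTCGANNC alone. These checks cover whether placed letters are found, and not how often sites turn up by chance in GC-rich sequence. The members, gene lists, words and rules were chosen with earlier results of these data known, and the core and consensus were read off these peaks. Named were the 20 strongest peaks, the 3 strongest per class, up to 4 bound genes per list, peaks near small RNA genes, those nearest the tRNA limit, the strongest bearer of each word, the 3 strongest shared promoters, the 4 widest replicate gaps and the 3 closest pairs. The further bound genes with the next highest signal, nipi-3, fbxa-190, mrp-5, mbk-1 and the bound genes outside the lists were named after their values were seen. Python 3.11.15, numpy 2.4.6, pandas 2.3.3, scipy 1.17.1 and matplotlib 3.10.9 were used. Alternatives changed the distance from tRNA genes, the peak set, the score, the signal, the promoter window, the overlap, the word window and the differences allowed.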

Additional observations from a re-analysis of the deposited data

Results flagged for a closer look

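Regions outside the set carried signal above its strongest member. On X away from tRNA genes, 18 ranked regions had a score of at least 830 and were not in the set, and 17 of them were intergenic. The highest had a pooled signal of 3467, at chrX:15810951-15811199, -6937 bp from the start of Y7A5A.7, with 1902 in replicate 1 and 1802 in replicate 2. None of the 18 came within 2 differences of the consensus near its summit. Over all chromosomes 115 ranked regions had such a score and were not in the set. The reason is not given in the sources used here, and these regions entered no comparison.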

How the results depend on the processing

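Over 13 other settings 114 values were recomputed, 79 stayed within the interval of the reported value (for counts, within 1.5 times it), 35 moved and 0 changed sign. In the own thresholded set of a single replicate the median signal was 64.1 for replicate 1 and 55.6 for replicate 2. These are the replicate's own signals, not comparable with the pooled one. Over the 237 members the replicates' own medians were 48.8 and 40.1. A single replicate's set gave 110 to 135 peaks, 48 to 65 bound genes, 9.09% to 11.9% in introns and 34.8% to 41.8% intergenic. It also gave 36.4% to 45.9% between 25% and 75% of X, and 0% with CTGAGCTA. That word was also at 0% in the other series set, at score 1000 and in the upper 50% by signal. At score 1000 the median signal was 102, with 46.6% of peaks in both replicates' sets and 20.7% in neither. In the upper 50% by signal there were 113 peaks, a median of 120.2, 55 bound genes, 67.3% in both, 4.42% in neither and a median log2 ratio of 0.33. A promoter of 2000 and 500 bp gave 54.4% in promoters and 24.5% intergenic, and one of 500 and 100 bp gave 34.2% and 38.4%. Words within 100 bp put AGACGCAG at 11.8%. For the consensus, chosen after seeing the data, at most 1 difference gave 2.95% of peaks, at most 3 gave 13.9%, the upper 50% by signal 10.6%, and a single replicate's set 10.4% to 10.9%. The intergenic share of the strongest 25% was 48.5% to 59.3% in a single replicate's set and 57.1% within the upper 50% by signal. Distance limits of 100 or 1000 bp moved no value. No paired analysis was possible because there is 1 group.

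Signal has no stated scale and depth is unknown, so weak peaks cannot be called absent from a replicate. Without a control library, signal at open chromatin was not measured.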
